A study of Mus musculus with 8 samples.

Results

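Wnt ligands, their Frizzled and Lrp receptors, the secreted Wnt inhibitors and a few downstream genes were followed in mice fed a high-fat diet, in epididymal white adipose tissue, a visceral depot attached to the epididymis. The set was every gene of the deposited table whose symbol is Wnt, Fzd, Sfrp or Dkk followed by a number, plus Frzb, Lrp5, Lrp6, Ctnnb1, Axin2 and Tcf7l2, which gave 42 of 31854 rows. S273A mice carried a knock-in allele of PPAR-gamma, the master transcription factor of adipocyte differentiation, in which the serine at position 273, a site phosphorylated in the fat of obese mice, is replaced by alanine; counts per gene cannot check a change of a single codon. WT mice carried the unmodified receptor; all 8 libraries share the depot and the diet, with 4 libraries per genotype (S273A replicates 2, 3, 4 and 6; WT replicates 1, 2, 3 and 5). Sample titles write AA for the S273A libraries without saying what it stands for. The labels state no age, strain, litter, batch or number of mutant alleles and leave it unsaid whether the libraries are separate animals. All p-values therefore refer to library-to-library spread, part or all of which may be technical. Whole tissue was used, so fewer cells of a type and less RNA per cell cannot be told apart.

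Wnt proteins are secreted, lipid-modified ligands that bind Frizzled receptors on the cell surface. In the canonical branch, an Lrp5 or Lrp6 coreceptor joins the complex, beta-catenin (Ctnnb1) escapes degradation and acts with TCF/LEF factors such as Tcf7l2, and Axin2 is induced as a feedback brake; in the non-canonical branches, ligands such as Wnt5a act without beta-catenin. Sfrp proteins and Frzb bind the ligands, and Dkk1, Dkk2 and Dkk4 bind the Lrp coreceptors. In mouse preadipocytes, canonical ligands such as Wnt10b hold back fat cell formation, in part by keeping PPAR-gamma low, a known link between this pathway and the receptor mutated here.

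The promoters of the members with the highest level in each group of secreted or surface proteins (Wnt2b, Fzd4 and Sfrp5) are shown, with those of Wnt11 and Wnt5b, the ligands that passed the low-count filter and hold a TCF/LEF core word near a start site. Each run is the 250 bases before an annotated start, 5′ to 3′ on the gene's strand, from RefSeq on GRCm38.p6, and capitals mark the word.
Wnt2b (chr3:104961710-104961959, minus strand): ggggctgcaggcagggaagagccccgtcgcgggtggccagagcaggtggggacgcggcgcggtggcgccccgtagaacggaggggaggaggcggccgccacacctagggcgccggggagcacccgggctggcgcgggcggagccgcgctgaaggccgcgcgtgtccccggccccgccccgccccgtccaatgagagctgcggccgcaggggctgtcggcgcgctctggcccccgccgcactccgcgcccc
Fzd4 (chr7:89404116-89404365, plus strand): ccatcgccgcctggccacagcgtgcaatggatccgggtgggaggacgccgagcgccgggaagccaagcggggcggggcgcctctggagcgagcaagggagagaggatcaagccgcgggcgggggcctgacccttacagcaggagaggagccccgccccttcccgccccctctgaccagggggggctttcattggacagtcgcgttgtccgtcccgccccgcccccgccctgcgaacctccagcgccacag
Sfrp5 (chr19:42202253-42202502, minus strand): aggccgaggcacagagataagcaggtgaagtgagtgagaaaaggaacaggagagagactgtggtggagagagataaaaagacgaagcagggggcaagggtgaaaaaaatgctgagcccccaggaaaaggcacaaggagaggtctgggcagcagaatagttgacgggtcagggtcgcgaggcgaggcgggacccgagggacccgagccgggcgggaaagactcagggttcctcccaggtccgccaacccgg
Wnt11 (chr7:98834862-98835111, plus strand): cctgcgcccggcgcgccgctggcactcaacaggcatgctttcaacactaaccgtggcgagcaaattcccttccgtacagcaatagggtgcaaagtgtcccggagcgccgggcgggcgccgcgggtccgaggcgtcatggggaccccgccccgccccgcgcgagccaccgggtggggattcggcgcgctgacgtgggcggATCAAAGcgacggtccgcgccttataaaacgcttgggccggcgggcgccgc
Wnt5b (chr6:119449387-119449636, minus strand): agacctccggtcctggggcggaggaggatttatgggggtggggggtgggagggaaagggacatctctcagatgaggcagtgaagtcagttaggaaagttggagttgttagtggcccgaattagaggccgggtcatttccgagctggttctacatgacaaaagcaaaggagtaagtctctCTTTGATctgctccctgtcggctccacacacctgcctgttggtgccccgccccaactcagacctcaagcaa
The words searched on either strand were CTTTG followed by AA, AT, TA or TT; each run shown holds at most 1 of them, so none overlaps another. In Wnt11 the word starts 51 bases before an annotated start and lies on the other strand, where it reads CTTTGAT. In Wnt5b it starts 71 bases before a start and lies on the gene's own strand. No other listed start of Wnt11 or Wnt5b had a word in its run. The RefSeq table held 33 promoters of 28 members, and 5 of them, 15.2%, had a word, against 14.8% of all 32851 promoters. The other carriers were Fzd7, Dkk1 and a second start of Tcf7l2. The members' promoters were rich in G and C, with a median of 70.8% against 52.4% for all promoters. A match is a description of letters and says nothing of binding.

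Of the 42 members, 29 passed the filter on low counts and were tested, 11 had counts below it, and Wnt3a and Wnt7a were at 0 in every library. A count of 0 allows up to 3 counts, which is 0.167 to 0.185 CPM in the S273A libraries and 0.171 to 0.205 CPM in the WT libraries, for counting error only. CPM are counts scaled to a common library size after TMM normalization, and the level per length (RPKM) is CPM divided by the deposited feature length in kilobases. No symbol stood on more than 1 row. Sfrp2 was not analysed here. The tested members had totals of 66 counts or more over the 8 libraries, and those below the filter 77 or fewer. The filter asks for the CPM that 10 counts give in a library of median size, reached in at least 4 libraries, so that Dkk2, with 77 counts in all, was left out while Wnt9b, with 66, was kept.

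**Figure D1:**
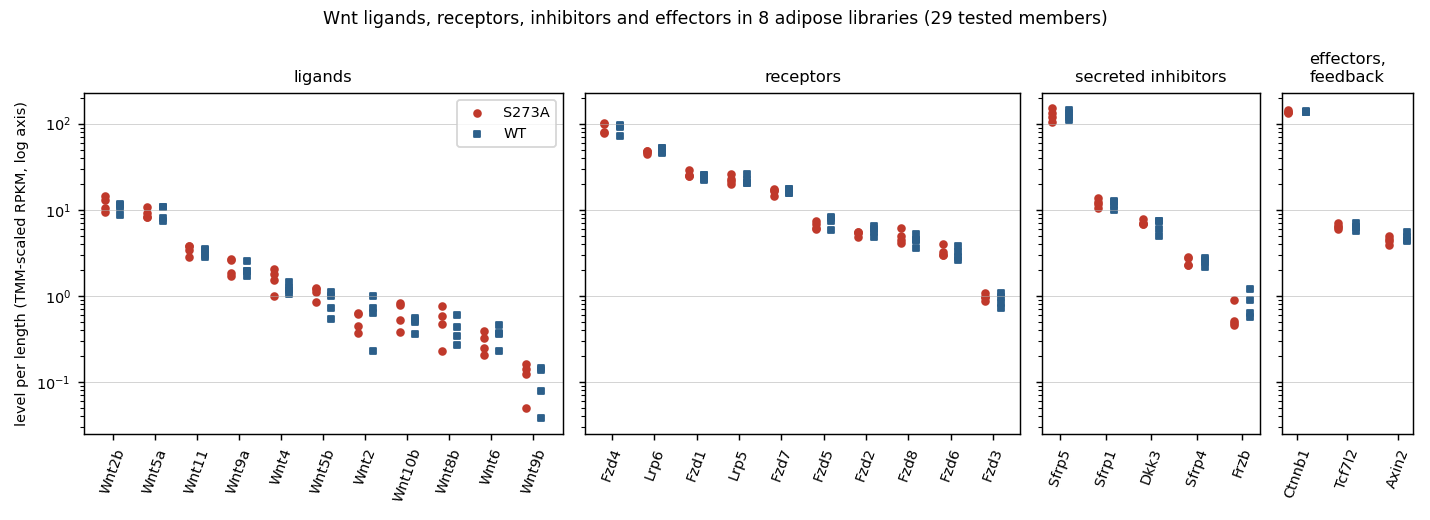
Level per length of the 29 tested members in each library, on a log axis in TMM-scaled RPKM, with S273A as red circles left of WT as blue squares, ordered by mean level within each group of genes. Wnt2b and Wnt5a lead the ligands, Fzd4 the receptors and Sfrp5 the inhibitors, and the genotypes overlap for every member shown.

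The ligand mRNAs of this depot were mainly Wnt2b and Wnt5a. Together with Wnt11 and Wnt9a, they made up most of the summed ligand level per length, which was 31.7 ± 4.12 RPKM in S273A and 29.5 ± 1.97 RPKM in WT (SD, n = 4 each). Wnt2b, a ligand of the canonical branch, took 37.2% ± 3.08 of this sum in S273A and 35.8% ± 4.45 in WT. Wnt5a, the prototype of the non-canonical ligands, took 28.7% ± 2.04 in S273A and 31.3% ± 5.26 in WT, and Wnt11, another non-canonical ligand, 10.9% ± 1.06 in S273A and 10.8% ± 0.94 in WT. Wnt9a, known from joint formation, followed with 6.99% ± 1.41 in S273A and 6.90% ± 1.43 in WT. Over the 8 libraries the mean level was 11.2 RPKM for Wnt2b and 9.18 for Wnt5a, and then 3.32 for Wnt11, 2.12 for Wnt9a, 1.41 for Wnt4 and 0.971 for Wnt5b. Wnt10b, Wnt6 and Wnt10a, 3 of the ligands that restrain fat cell formation in mouse cell culture, were low: the mean was 0.557 RPKM for Wnt10b, 0.323 for Wnt6 and 0.199 for Wnt10a. Wnt2 (0.581 RPKM), Wnt8b (0.461 RPKM) and Wnt9b (0.109 RPKM) completed the tested ligands.

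Several Wnt genes sit in close pairs in the genome, and their mean levels over the 8 libraries are given per length. On chromosome 11, Wnt9a (59306928 to 59333552, GRCm38) lies 16.2 kb from Wnt3a, and Wnt9a was at 2.12 RPKM while Wnt3a had 0 counts. Wnt10b and Wnt1, 11.7 kb apart on chromosome 15, were at 0.557 RPKM for Wnt10b and 0.0132 RPKM for Wnt1. Wnt9b and Wnt3, 24.3 kb apart on chromosome 11, were at 0.109 RPKM for Wnt9b and 0.0166 RPKM for Wnt3. Wnt6 and Wnt10a, 6.19 kb apart on chromosome 1, were at 0.323 RPKM for Wnt6 and 0.199 RPKM for Wnt10a. The 4 lower genes of these pairs rest on few or no counts, with 54 for Wnt10a, 7 for Wnt3 and 4 for Wnt1. The remaining ligands below the filter were Wnt16 with 51 counts, Wnt7b with 16 and Wnt8a with 2.

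No ligand was called between the genotypes: in edgeR's quasi-likelihood test with Benjamini-Hochberg adjustment over 15667 rows, 0 of 29 members had an adjusted p under 0.05, against 0.0% of all tested rows. At an unadjusted p under 0.05 there were 0 of 29 members, against 1.46% of all tested rows, and DESeq2 and limma-voom also called 0 members and gave 0 at an unadjusted p under 0.05. The genotypes did not overlap for 0 of the 29 tested members, against 1.19% of all tested rows (0.657% higher and 0.53% lower in S273A). Of the 11 tested ligands, 8 had a positive estimate, with a median log2 fold change of 0.17, and 19 of all 29 members did, with a median of 0.04; of all tested rows, 50.7% had a positive estimate, with a median of 0.00148.

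**Figure D2:**
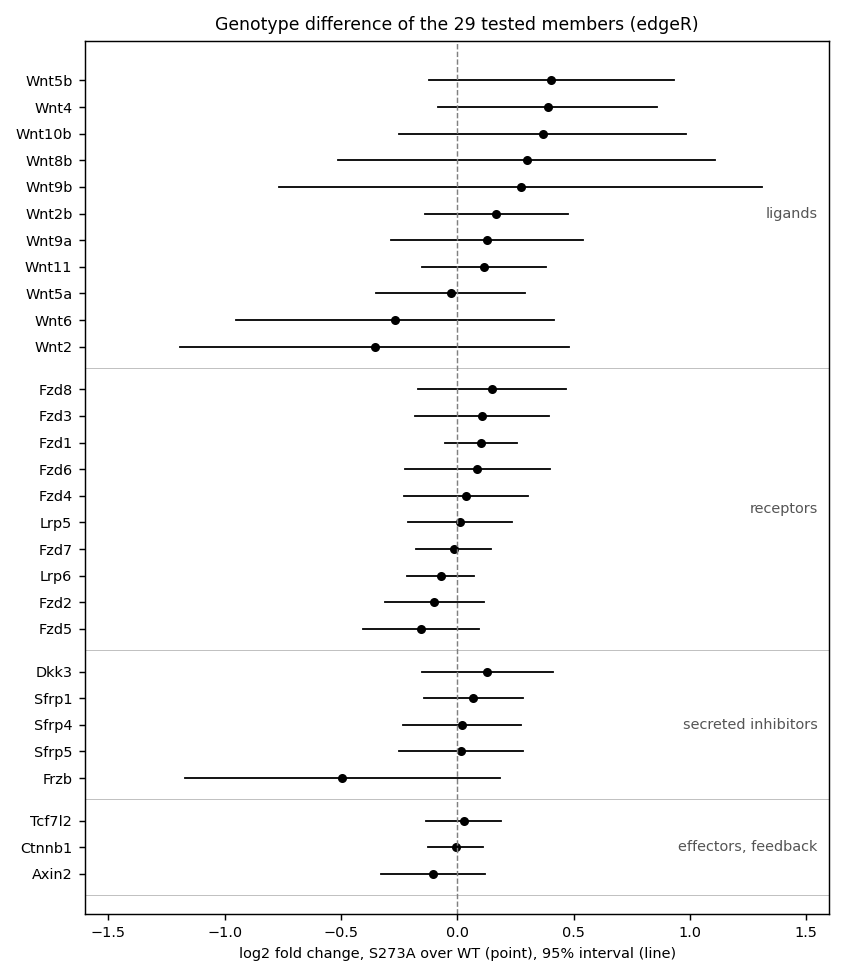
Estimated log2 fold change of S273A over WT for the 29 tested members (points) with 95% intervals from edgeR (lines), by group of genes and ordered by the estimate. Every interval includes 0; the widest belong to the low ligands Wnt9b, Wnt2 and Wnt8b, and among the narrowest is that of Ctnnb1, from -0.12 to 0.11.

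Wnt2b was at 37.6, 46.3, 51.5 and 34.0 CPM in S273A replicates 2, 3, 4 and 6, against 37.1, 42.0, 31.4 and 40.2 CPM in WT replicates 1, 2, 3 and 5. S273A replicates 3 and 4 lay above every WT library and the other S273A libraries within the WT range. The estimate for S273A over WT was 0.17 on the log2 scale (SE 0.14, 95% interval from -0.14 to 0.47). Wnt5a was at 39.8, 35.9, 46.9 and 36.4 CPM in S273A against 35.1, 32.1, 47.3 and 47.7 CPM in WT, so that all S273A libraries fell inside the WT range (log2 fold change -0.03, SE 0.14). Wnt5a shares exon bases with a gene annotated on the opposite strand, Gm2670, and the libraries hold no strand information. Wnt11 was at 12.2, 10.9, 11.9 and 9.04 CPM in S273A and at 9.08, 9.44, 11.2 and 10.98 CPM in WT, with S273A libraries at either end of the whole range (log2 fold change 0.11, SE 0.12). It likewise overlaps an antisense gene, Gm8398.

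Wnt4, a ligand best known from kidney tubules and the female reproductive tract, had the smallest unadjusted p of all members (0.0967; edgeR adjusted p 1.00). It was at 3.85, 7.93, 6.89 and 5.78 CPM in S273A against 4.04, 4.66, 4.45 and 5.52 CPM in WT. In 3 of 4 S273A libraries it was above every WT library, while S273A replicate 2 was the lowest of all 8. The log2 fold change was 0.39 (SE 0.21, 95% interval from -0.08 to 0.86). Wnt5b, the close relative of Wnt5a, was at 3.18, 2.98, 3.27 and 2.28 CPM in S273A against 1.90, 1.42, 2.94 and 2.64 CPM in WT. Again 3 S273A libraries lay above every WT library and the other (replicate 6) lay within the WT range, and the log2 fold change was 0.41 (SE 0.23, unadjusted p 0.116). For Wnt10b the libraries were at 1.84, 1.18, 1.78 and 0.861 CPM in S273A, against 1.13, 1.19, 0.821 and 1.23 CPM in WT, where S273A replicates 2 and 4 were higher than all WT libraries (log2 fold change 0.37, SE 0.28). These Wnt10b values rest on 12 to 33 counts per library.

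**Figure D3:**
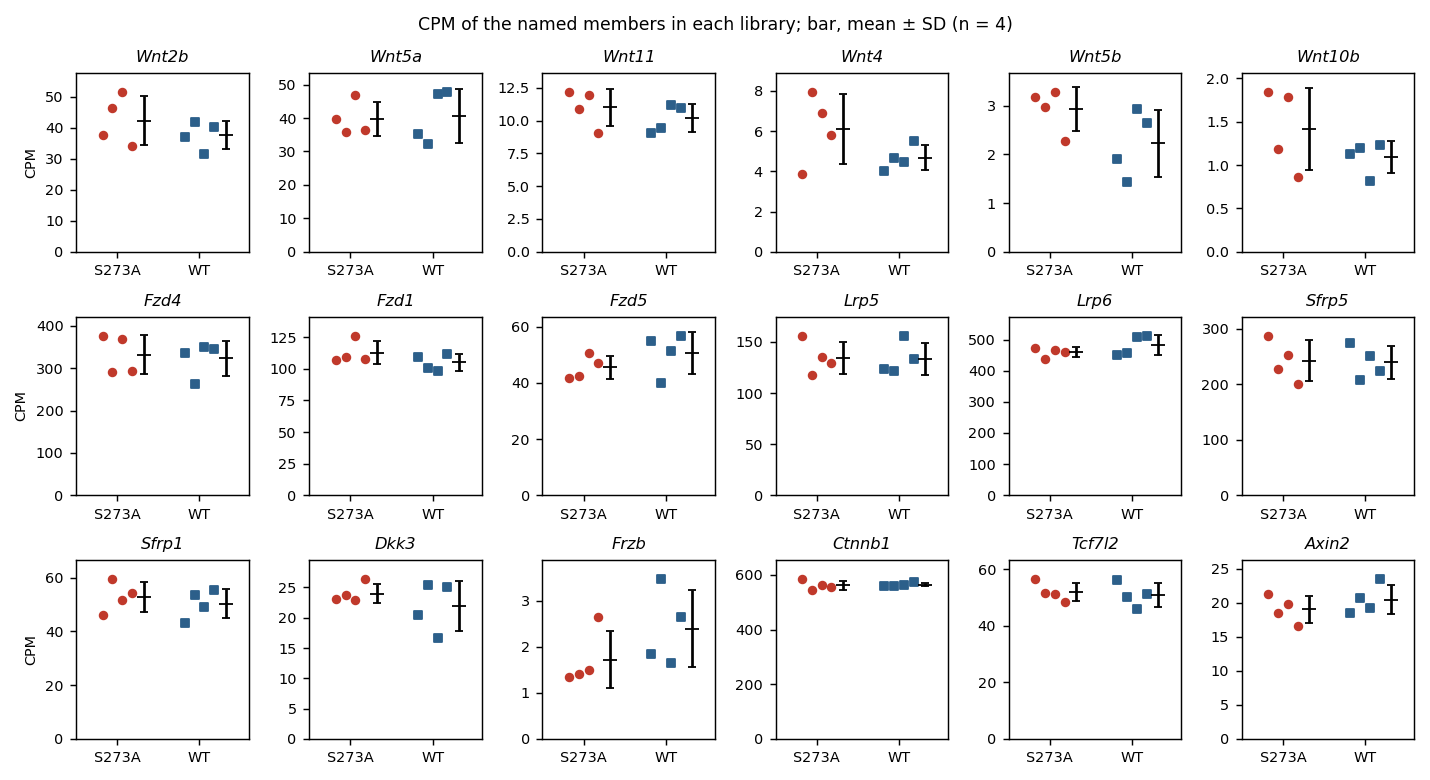
CPM of the 18 members described by library, with S273A (red circles) left of WT (blue squares) and the mean ± SD of 4 libraries as a black bar; each axis starts at 0. Wnt4 shows 3 S273A libraries above and 1 below all WT libraries, Frzb shows 3 S273A libraries below all WT libraries, and Ctnnb1 lies between 544 and 584 CPM in all 8.

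Receptor mRNA was dominated by Fzd4, which also serves as the receptor of Norrin in blood vessel growth, and by the coreceptor Lrp6. The 12 receptors summed to 223 ± 16.8 RPKM in S273A and 221 ± 16.7 RPKM in WT (SD, n = 4 each), with Fzd4 taking 40.3% ± 2.69 in S273A and 39.5% ± 2.43 in WT. Lrp6 took 21.1% ± 1.06 in S273A and 22.3% ± 1.10 in WT, Fzd1 11.6% ± 0.86 in S273A and 10.9% ± 0.88 in WT, and Lrp5 10.1% ± 0.68 in S273A and 10.1% ± 0.84 in WT. The order of mean levels was Fzd4 (88.9 RPKM), Lrp6 (48.2), Fzd1 (24.9), Lrp5 (22.4), Fzd7 (16.4), Fzd5 (6.95), Fzd2 (5.50), Fzd8 (4.67), Fzd6 (3.22) and Fzd3 (0.932). Over the 8 libraries the ranges of neighbours in this order overlapped for Fzd1 and Lrp5, Fzd5 and Fzd2, Fzd2 and Fzd8, and Fzd8 and Fzd6, and for no other neighbours. Fzd10 had 35 counts and Fzd9 11 counts in all, both below the filter.

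Fzd4 (chromosome 7, 89404355 to 89413134, plus strand, GRCm38) was at 376, 290, 368 and 294 CPM in S273A against 336, 262, 351 and 344 CPM in WT. S273A replicates 2 and 4 lay above every WT library and replicates 3 and 6 below all but WT replicate 2, and the log2 fold change was 0.04 (SE 0.12, 95% interval from -0.23 to 0.30). Lrp6 was at 474, 436, 465 and 460 CPM in S273A and at 451, 456, 509 and 512 CPM in WT. No S273A library reached the 2 highest WT libraries, and the log2 fold change was -0.07 (SE 0.06). Lrp5, the other coreceptor, known for its control of bone mass, was at 155, 118, 135 and 130 CPM in S273A and at 124, 122, 156 and 133 CPM in WT, with nearly the same range in both genotypes (log2 fold change 0.01, SE 0.10). Per length, Lrp6 exceeded Lrp5 by a ratio of 2.11 ± 0.17 in S273A and 2.23 ± 0.15 in WT.

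The receptors with the smallest p-values were Fzd1, Fzd5 and Lrp6. Fzd1 was at 107, 110, 126 and 108 CPM in S273A against 110, 101, 98.2 and 112 CPM in WT, and only S273A replicate 4 lay outside the WT range (log2 fold change 0.10, SE 0.07, unadjusted p 0.177). Fzd5, a receptor that can bind Wnt5a, was at 41.6, 42.6, 50.6 and 47.2 CPM in S273A against 54.8, 39.9, 51.2 and 56.7 CPM in WT. All S273A libraries lay below 3 of the WT libraries and above WT replicate 2 (log2 fold change -0.15, SE 0.11, unadjusted p 0.197). The other tested receptors, Fzd2, Fzd3, Fzd6, Fzd7 and Fzd8, had log2 fold changes from -0.10 to 0.15. The p-values named here are unadjusted values from edgeR's quasi-likelihood test, whose adjusted p was 1.00 for each.

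Below the filter, Fzd9 had 2, 2, 3 and 2 counts in S273A and 0, 0, 1 and 1 counts in WT. The genotypes did not overlap for this receptor, but every library was within the 3 counts that a count of 0 allows, so no fold is given. Of the 7041 rows with counts below the filter, 0.597% were higher in every S273A library than in every WT library and 0.767% lower. Tested without the filter, Fzd9 had an unadjusted p of 0.0471 and an adjusted p of 0.999 in edgeR's quasi-likelihood test. Fzd9 was singled out after its values were seen.

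Among the 8 secreted inhibitors of the set, Sfrp5 exceeded all others together. Igfbp4, placed in the list of other extracellular inhibitors outside the set, was higher, with a mean of 216 RPKM over the 8 libraries. Sfrp5 is made by fat cells and in mice binds Wnt5a. The 8 inhibitors with a row summed to 150 ± 17.9 RPKM in S273A and 147 ± 13.2 RPKM in WT (SD, n = 4 each), and Sfrp5 took 84.7% ± 2.85 of this in S273A and 85.2% ± 3.02 in WT. Sfrp1, which binds Wnt ligands and is also made in fat tissue, took 8.20% ± 1.64 in S273A and 7.91% ± 1.47 in WT, and Dkk3, a divergent member of the Dickkopf family, 4.81% ± 0.88 in S273A and 4.46% ± 1.16 in WT. Mean levels were 126 RPKM for Sfrp5, 11.8 for Sfrp1, 6.78 for Dkk3, 2.52 for Sfrp4 and 0.705 for Frzb. The Lrp-binding Dickkopf genes were scarcely detected, with 77 counts in all for Dkk2, 17 for Dkk4 and 3 for Dkk1, the last all in WT libraries. Per length, Sfrp5 exceeded Wnt5a by a ratio of 16.6, 14.5, 12.4 and 12.7 in S273A libraries and 17.97, 14.8, 12.2 and 10.8 in WT libraries, so the S273A ratios lay inside the WT range.

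Sfrp5 (chromosome 19, 42197971 to 42202252, minus strand, GRCm38) was at 287, 227, 253 and 200 CPM in S273A against 274, 207, 251 and 224 CPM in WT. The highest and the lowest library were both S273A, and the log2 fold change was 0.02 (SE 0.12, 95% interval from -0.25 to 0.28). Sfrp1 was at 46.2, 59.3, 51.5 and 54.1 CPM in S273A and at 43.3, 53.5, 49.1 and 55.4 CPM in WT, with only S273A replicate 3 above the WT range (log2 fold change 0.07, SE 0.10). Dkk3 was at 23.0, 23.7, 22.9 and 26.3 CPM in S273A and at 20.5, 25.4, 16.7 and 25.0 CPM in WT, where the WT libraries spread more widely (log2 fold change 0.13, SE 0.13).

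Frzb, also called Sfrp3, an inhibitor first described in cartilage, had the most negative estimate of the members. It was at 1.34, 1.41, 1.49 and 2.65 CPM in S273A against 1.84, 3.47, 1.64 and 2.64 CPM in WT. The first 3 of these S273A libraries lay below every WT library, but S273A replicate 6 was above all WT libraries except replicate 2. The log2 fold change was -0.49 (SE 0.30, 95% interval from -1.17 to 0.18; edgeR unadjusted p 0.135). The values rest on 24 to 61 counts per library.

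The mRNAs of beta-catenin, Tcf7l2 and Axin2 showed no difference that exceeded the spread between libraries. Beta-catenin protein was not measured. Ctnnb1 was at 584, 544, 565 and 554 CPM in S273A against 560, 561, 562 and 574 CPM in WT. The whole range of the 8 libraries was narrow, with a coefficient of variation of 2.11%; of 2489 tested rows with a mean of 100 CPM or more, 30 had a lower one, and their median was 6.42%. The log2 fold change of Ctnnb1 was -0.01 (SE 0.05, 95% interval from -0.12 to 0.11). Ctnnb1 shares exon bases with Ulk4 on the opposite strand. Tcf7l2, a TCF factor whose human gene is associated with type 2 diabetes, was at 56.4, 51.7, 51.3 and 48.4 CPM in S273A and at 56.1, 50.3, 46.0 and 51.3 CPM in WT (log2 fold change 0.03, SE 0.07). Only the highest S273A library lay outside the WT range, by a small margin.

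Axin2, whose transcription is commonly read as a measure of canonical signalling, was at 21.2, 18.4, 19.9 and 16.6 CPM in S273A against 18.5, 20.7, 19.3 and 23.4 CPM in WT. The lowest libraries were S273A replicates 6 and 3 and the highest was WT replicate 5, with the others intermixed. The log2 fold change was -0.10 (SE 0.10, 95% interval from -0.33 to 0.12). Other tested members that share exon bases with an antisense gene were Fzd5 and Fzd6. Axin2 lies on chromosome 11, from 108920349 to 108950783 on the plus strand, and overlaps the antisense gene Gm11670; the 250 bases before its start held none of the TCF/LEF words searched.

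**Figure D4:**
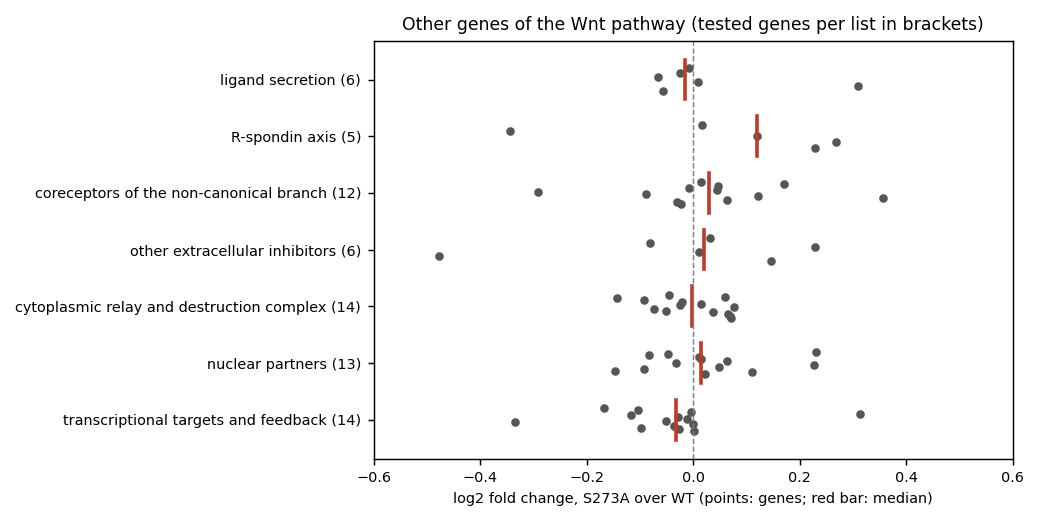
Estimated log2 fold change of S273A over WT for 70 tested genes of the Wnt pathway outside the members, in 7 lists, with the median of each list as a red bar. The medians lie between -0.03 and 0.12, and no gene was called.

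The rest of the pathway was read from 81 further genes in 7 lists drawn from general knowledge, of which 70 were tested. None was called in edgeR (0 higher and 0 lower in S273A, against 0.0% of all tested rows), and 3 of 70 had an unadjusted p under 0.05, against 1.46% of all tested rows. Positive estimates numbered 34 and negative ones 36, against 50.7% positive among all tested rows, and the median log2 fold change was -0.00197. Ligand secretion (6 genes tested) had a median of -0.02. Porcn, the acyltransferase that attaches the lipid to Wnt proteins, was at 14.3, 11.6, 10.6 and 14.5 CPM in S273A against 10.3, 9.38, 11.4 and 10.1 CPM in WT. In 3 of 4 S273A libraries it was above every WT library and in replicate 4 inside the WT range (log2 fold change 0.31, SE 0.12; edgeR unadjusted p 0.0295, adjusted p 1.00). Wls, the carrier that takes lipidated Wnt proteins to the surface, was at 150 ± 3.09 CPM in S273A and 156 ± 10.4 CPM in WT (SD, n = 4 each).

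The 12 coreceptors and polarity genes of the non-canonical branch had a median of 0.03, with 7 positive and 5 negative estimates. Ptk7, a pseudokinase receptor of planar cell polarity, was at 12.4, 15.97, 13.6 and 17.0 CPM in S273A against 10.2, 11.4, 10.5 and 13.9 CPM in WT. S273A replicates 3 and 6 were above every WT library, and the others below WT replicate 5 (log2 fold change 0.36, SE 0.13; edgeR unadjusted p 0.0225, adjusted p 1.00). The cadherin Celsr1 was at 10.1, 19.3, 10.1 and 9.91 CPM in S273A and at 16.4, 18.3, 15.1 and 10.9 CPM in WT. S273A replicate 3 was the highest of all libraries and the other 3 S273A libraries were the lowest (log2 fold change -0.29, SE 0.24). Without S273A replicate 3 the log2 fold change of Celsr1 was -0.58 (edgeR unadjusted p 0.00558, adjusted p 1.00). That library was singled out because these same values set it apart. Without any other 1 library the estimate ran from -0.43 to -0.19, with an edgeR unadjusted p of 0.103 or more.

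R-spondins, which amplify Wnt signals through Lgr receptors, were represented by 5 tested genes with 4 positive estimates and a median of 0.12. Rspo1 was at 16.7 ± 2.72 CPM in S273A and 14.2 ± 1.75 CPM in WT (log2 fold change 0.23, SE 0.13), and Lgr4, the Lgr receptor with by far the most counts here, at 107 ± 12.3 CPM in S273A and 98.6 ± 13.4 CPM in WT (log2 fold change 0.12, SE 0.11). Other extracellular inhibitors (6 tested) had a median of 0.02. Apcdd1, a membrane-bound Wnt inhibitor, was at 164, 123, 142 and 109 CPM in S273A against 123, 93.9, 118 and 126 CPM in WT (log2 fold change 0.23, SE 0.13), with 2 S273A libraries above all WT libraries. Sostdc1, an inhibitor of Wnt and BMP signals, was at 0.397 ± 0.416 CPM in S273A and 0.570 ± 0.399 CPM in WT (log2 fold change -0.48, SE 0.81), from 65 counts in all. Its estimate ran from -1.50 without S273A replicate 3 to -0.20 without S273A replicate 6 and was -0.10 in limma-voom, so its size is not fixed by these data.

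In the cytoplasm, 14 genes of the relay and the destruction complex split evenly, with 7 positive and 7 negative estimates and a median of -0.00332. The kinase Gsk3a, which marks beta-catenin for degradation, was at 64.4 ± 2.17 CPM in S273A and 61.0 ± 1.41 CPM in WT (log2 fold change 0.08, SE 0.05), and the casein kinase Csnk1g1 at 54.1 ± 1.96 CPM in S273A and 57.7 ± 3.66 CPM in WT (log2 fold change -0.09, SE 0.06). Nuclear partners (13 tested) had a median of 0.01. The beta-catenin cofactor Bcl9 was at 28.3 ± 1.26 CPM in S273A and 30.2 ± 0.97 CPM in WT, and Cby1, which antagonises beta-catenin, at 5.15 ± 0.65 CPM in S273A and 4.40 ± 0.88 CPM in WT (SD, n = 4 each).

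Transcriptional targets and feedback genes other than Axin2 had 2 positive and 12 negative estimates among 14 tested, with a median of -0.03 and a range from -0.33 to 0.31. Of all tested rows, 50.7% had a positive estimate. Some of the negative estimates were near 0, such as -0.0035 for Nrcam and -0.012 for Cd44. In edgeR, 1 of the 14 had an unadjusted p under 0.05, against 1.46% of all tested rows. The signs were not tested as a set. Wisp2, a secreted Wnt-induced protein of mesenchymal cells, was at 55.6, 70.7, 77.1 and 71.9 CPM in S273A against 105, 83.7, 84.9 and 73.3 CPM in WT. S273A replicate 4 alone of the knock-in libraries was above the lowest WT library, and the log2 fold change was -0.33 (SE 0.12; edgeR unadjusted p 0.0234, adjusted p 1.00). Bambi, a pseudoreceptor of the BMP family that Wnt signals induce, was at 5.85 ± 0.63 CPM in S273A and 6.57 ± 0.69 CPM in WT (log2 fold change -0.17, SE 0.12).

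Markers of the labelled tissue were present: 8 of 8 adipocyte genes, among them Adipoq and Plin1, were tested, with a sum of 7424 to 9680 CPM in S273A and 6322 to 9809 CPM in WT, while 8 epididymis and testis genes with a row summed to 0.0574 to 1.23 CPM in S273A and 0.0593 to 0.176 CPM in WT, with 3 of them at 0 throughout. The 1.23 CPM was that of S273A replicate 2, and the other S273A libraries were at 0.0574 to 0.112 CPM. It came mainly from Adam7, whose highest count in any library was 20. Library totals ran from 16161127 to 18194889 counts in S273A and from 14880239 to 17266209 counts in WT. Macrophage markers (8 of 8 tested, 1 positive estimate) summed to 3567 to 4033 CPM in S273A and 3813 to 4513 CPM in WT, endothelial markers (8 of 8, 8 positive) to 835 to 1024 CPM in S273A and 702 to 972 CPM in WT, and smooth muscle and pericyte markers (8 of 8, 4 positive) to 927 to 1192 CPM in S273A and 796 to 1114 CPM in WT. Red blood cell markers (6 of 9 tested, 6 positive) summed to 259 to 499 CPM in S273A and 235 to 350 CPM in WT, and T cell markers (7 of 8 tested, 0 positive) to 49.7 to 112 CPM in S273A and 44.8 to 104 CPM in WT.

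**Figure D5:**
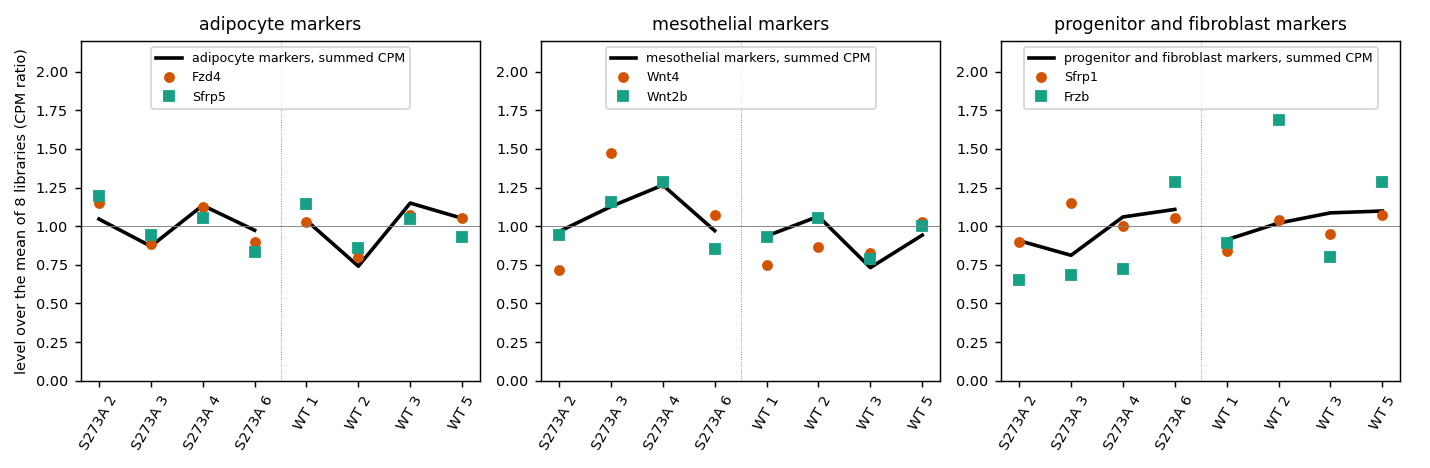
CPM of members (points) beside the summed CPM of marker lists (black lines), each divided by its mean over the 8 libraries, with S273A libraries left of the dotted line and WT libraries right of it. WT replicate 2 is the lowest library for the adipocyte sum and for Fzd4, and S273A replicate 4 is the highest for the mesothelial sum and for Wnt2b. Sfrp1 is highest in S273A replicate 3, where the progenitor and fibroblast sum is lowest.

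Library by library, some members followed a marker sum in part, and others did not. The adipocyte sum was lowest in WT replicate 2 (6322 CPM) and next lowest in S273A replicate 3 (7424 CPM), the same libraries that were lowest for Fzd4 (262 and 290 CPM). WT replicate 2 was also next to lowest for Sfrp5 (207 CPM). Sfrp5 was lowest in S273A replicate 6 (200 CPM), where the adipocyte sum was 8308 CPM. Fzd4 was highest in S273A replicate 2 (376 CPM), while the adipocyte sum was highest in WT replicate 3 (9809 CPM). Mesothelial genes, which mark the cell layer covering the depot, had positive estimates in 14 of 14 tested members, with a median log2 fold change of 0.29 and 0 called, and summed to 292, 341, 383 and 294 CPM in S273A against 283, 322, 221 and 285 CPM in WT. Wnt2b was highest (51.5 CPM) in S273A replicate 4 and lowest (31.4 CPM) in WT replicate 3, the libraries at the top and bottom of that sum, and Wnt4 was highest in S273A replicates 3 and 4, the same pair that led it. Wnt4 was lowest in S273A replicate 2, whose mesothelial sum of 292 CPM lay within the WT range. Progenitor and fibroblast markers (10 of 10 tested, 3 positive) summed to 5155 to 7042 CPM in S273A and 5795 to 6977 CPM in WT. Sfrp1 was highest (59.3 CPM) in S273A replicate 3, where this progenitor sum was lowest. Frzb was highest (3.47 CPM) in WT replicate 2, while the progenitor sum was highest in S273A replicate 6. The part of these cell types in the members' values was not tested.

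How small a difference could be seen differed between members. The 95% interval lay within a 1.5-fold difference either way for 21 of the 29 tested members and within 2-fold for 25, against 79.1% and 94.5% of all tested rows. The other 4 were low: Wnt2, Wnt8b, Wnt9b and Frzb, whose intervals reached past a 2-fold difference in at least 1 direction. The median coefficient of variation over the 8 libraries was 13.1% for the tested members and lay under 15% for 17 of them.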

How the data were processed

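RNA from epididymal white adipose tissue was depleted of ribosomal RNA and made into libraries without strand information, which were read as short paired ends, per the labels' protocols. The authors deposited 1 table of raw counts per gene for all 8 libraries, with a length column that per the file headers belongs to each row. The submitters' processing notes name the mm10 build, featureCounts 1.5.2, HISAT2 2.0.5, edgeR 3.3.0, Picard 2.9.2 and bcl2fastq 2.20.0 without saying what each was used for, and the annotation version is not given in the sources used here.

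Counts were tested here with edgeR 4.0.16 (R 4.3.3): rows were kept with filterByExpr (minimum count 10, minimum total 15), scaled by TMM, fitted with the robust quasi-likelihood model on genotype alone and adjusted by Benjamini-Hochberg over all 15667 kept rows. The SE of a log2 fold change was derived from the F statistic. After the main fit, the edgeR code was also run on counts simulated from the means, dispersions and library sizes of these data. DESeq2 1.42.0, limma-voom (limma 3.58.1), DESeq2 size factors, no filter, rows of a symbol summed, leaving out each library and a block on replicate numbers were alternatives. All 8 libraries entered, and 0 columns of per-sample values were left unused.

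RPKM divides TMM-scaled CPM by the deposited length. Gene positions come from GENCODE M21 on GRCm38 and promoters from RefSeq on GRCm38.p6. Members described library by library were Lrp5, Lrp6, Ctnnb1, Axin2 and Tcf7l2, any member called or not overlapping among those tested, and in each group of ligands, receptors and inhibitors the 3 highest in level per length and the 3 with the smallest unadjusted p; from each other pathway list, the 2 genes with the smallest p were named. The members, lists and rules were chosen with earlier results of these data known. Floors and count ranges cover counting error only.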

Additional observations from a re-analysis of the deposited data

Results flagged for a closer look

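In 5 of 102 groups of 4 libraries examined, 1 library stood apart from the other 3 by more than Dixon's 95% critical value for the gap over the range; chance alone gives about 1 in 20. Fzd1 had 126 CPM in an S273A library whose nearest neighbour had 110 CPM. Frzb had 2.65 CPM in an S273A library, next to 1.49 CPM. Ctnnb1 had 574 CPM in a WT library, next to 562 CPM. Among the other pathway genes, Celsr1 had 19.3 CPM in an S273A library, next to 10.1 CPM, and Bambi had 7.60 CPM in a WT library, next to 6.31 CPM.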

How the results depend on the processing

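No member was called under any of the 14 alternatives. Over all rows, DESeq2 called 1 row, with 216 rows at an unadjusted p under 0.05, limma-voom called 0 with 223, and leaving out 1 library gave 0 to 1 calls. The median log2 fold change of the tested members was 0.01 to 0.09 without any 1 library and 0.12 with the replicate block. Of 32 named genes, 30 kept their sign in every setting with all libraries and 26 without any 1 library. With the replicate block, the log2 fold change was 0.0057 for Ctnnb1 and -0.02 for Lrp5. Only replicate numbers 2 and 3 occur in both genotypes, so the genotype estimates of that block rest on the libraries with those numbers. The other libraries add nothing to them, and little spread is left for its p-values. Without 1 library it ran from -0.03 to 0.02 for Ctnnb1, from -0.05 to 0.11 for Fzd4, from -0.07 to 0.10 for Lrp5, from -0.08 to 0.10 for Sfrp5, from -0.01 to 0.08 for Tcf7l2 and from -0.13 to 0.06 for Wnt5a; the cause was not tested.

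Leaving out 1 library brought 5 members to an unadjusted p under 0.05 in edgeR, each in 1 setting and with an adjusted p of 0.999 or more: Wnt4 without S273A replicate 2 (log2 fold change 0.56, p 0.00602), Fzd5 without WT replicate 2 (-0.25, p 0.0101), Frzb without S273A replicate 6 (-0.77, p 0.0258), and, without WT replicate 3, Wnt5b (0.56, p 0.0446) and Wnt2 (-0.62, p 0.0481). Of the other named pathway genes, 4 that missed this threshold with all libraries passed it without 1 library: Celsr1 without S273A replicate 3 (-0.58, p 0.00558), Rspo1 without S273A replicate 2 (0.32, p 0.0235) or WT replicate 2 (0.32, p 0.0368), Cby1 without WT replicate 3 (0.37, p 0.0302) and Apcdd1 without S273A replicate 6 (0.32, p 0.0319), all with an edgeR adjusted p of 0.999 or more. These cases were picked from all 29 tested members and the other named genes over 8 fits, each without 1 library. For Wnt4, Fzd5, Frzb, Wnt5b and Wnt2, the library left out was the highest or lowest of its genotype. These same values thus set it apart. No share of all rows is given for these fits. With all libraries, 1.46% of all tested rows had an edgeR unadjusted p under 0.05. In the other direction, Porcn met this threshold with all libraries but missed it in several edgeR settings. Its unadjusted p was 0.0843 without S273A replicate 2 and 0.0897 without S273A replicate 6. It was 0.0552 without WT replicate 1, 0.0729 without WT replicate 2 and 0.232 with the replicate block. The genotypes share only replicate numbers 2 and 3, and the deviations of same-numbered libraries correlated at -0.0844 and -0.215 across genes. Libraries with unlike numbers ran from -0.429 (S273A replicate 3 with WT replicate 5) to 0.468 (S273A replicate 3 with WT replicate 2). These values cannot settle whether the numbers mark pairs. The numbers were not taken as pairs because the labels give no pairing. Members with few counts, such as Wnt9b, Wnt2 and Wnt8b, have the widest intervals.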
